A study of Mus musculus with 52 samples.

Results

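Ciliated cells of the Wdr34 mutant clone labelled 3 were compared with ciliated cells of the Wdr34 mutant clone labelled 1. The members are the 8 libraries that carry these 2 labels, 4 of each clone, out of 52 libraries in the whole series. No control library entered the test of clone 3 against clone 1. The ciliated libraries of the 4 control clones and the Wdr60 mutant clone helped to set the scale of the levels. They also show the place of a level among other ciliated clones and the number of calls between other pairs of clones. Both clones were derived from Cilia-APEX-IMCD3, an immortalised line of mouse inner medullary collecting duct, by base editing, and the labels describe both as homozygous mutants in the ciliated state. The study induced cilia by serum starvation, whereas the growth label of these libraries names medium with serum, so the treatment of the 8 libraries is not certain. The study edited Wdr34 to p.Arg183Trp and to p.Gly394Ser, but the labels do not say which of the alleles clone 1 and clone 3 carry, so the clones are named here by their numbers. According to the study the p.Gly394Ser clone also carries an unintended heterozygous missense change in the codon before. Each clone was grown from a single sorted cell and its 4 libraries are technical replicates. Every p-value therefore measures the spread between libraries of 2 clones, and an effect of the allele and a difference between clones cannot be told apart.

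Wdr34 encodes an intermediate chain of dynein-2, the motor that carries intraflagellar transport (IFT) particles from the tip of the cilium back to its base. The particles hold IFT-A and IFT-B complexes, move outwards with kinesin-2 and return with dynein-2, and hedgehog signalling depends on this transport. Collecting duct cells are an epithelium, in which keratin filaments, desmosomes, tight junctions and E-cadherin are maintained by transcription factors of the Grhl, Ovol and Elf families, whereas Zeb1, Zeb2 and vimentin are typical of mesenchymal cells.

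The sites that the study designed for the edits are shown first because the 2 clones are defined by an edit at one of them. Both are written 5′ to 3′ with the edited C and the PAM, the motif that Cas9 needs beside its target, in capitals.
Wdr34 p.Arg183Trp: tggtCggtgagtgagagctTGG
Wdr34 p.Gly394Ser: gggcCaccatggggagagaAGG
Wdr34 lies on the minus strand of chromosome 2 in GRCm38 (GENCODE vM21 transcript Wdr34-201, 9 exons, chr2:30031546-30048881). The first 6 bases of the p.Arg183Trp site are the last 6 bases of exon 3 (chr2:30034763-30034768), and the rest of this site runs on past the end of the exon. Its edited C, counted from 1 at the 5′ end, is base 5 and opens codon 183, CGG, which an edit to T turns into TGG. The p.Gly394Ser site lies wholly within exon 7 (chr2:30032435-30032456) on the opposite strand. Its edited C is also base 5 and pairs with the first base of codon 394, GGC, which becomes AGC. The counts do not show the edited base.

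Library totals ranged from 16076746 to 21100046 counts in clone 3 and from 15493164 to 17436097 in clone 1. Between 14476 and 14637 genes had a count in the clone 3 libraries and between 13769 and 13841 in those of clone 1. Levels are given in CPM, the usual unit of counts scaled to library size, here with TMM factors over the 28 ciliated libraries, as mean ± SD of 4 libraries. On the scale log2(CPM + 1), libraries of one clone correlated across genes at 0.994 to 0.997 and libraries of different clones at 0.941 to 0.945. Replicate 2 of clone 3 stood apart from the other libraries of its clone, with 28 tested genes more than 2-fold above the median of the 4 libraries and 0 below. Replicate 1 of clone 1 had 8 genes above and 8 below that limit, and each of the other 6 libraries had at most 1. The genes raised in both of these libraries include the chemokines Cxcl1, Cxcl5 and Ccl20, whose values are given with the immune genes. As a check of the labelled tissue, the collecting duct and kidney regulators Pax2 and Pax8 were present in both clones, at 125 against 136 and 243 against 298 CPM in clone 3 and clone 1. The water channel Aqp2 had 0 counts in all 8 libraries, and Aqp3, Aqp4, the vasopressin receptor gene Avpr2 and the urea transporter gene Slc14a2 stayed below 1 CPM in both clones.

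Of 12121 genes tested, 951 (7.85%) were called higher in clone 3 and 603 (4.97%) lower, in all 1554 (12.8%), by edgeR's quasi-likelihood test. A call required an adjusted p under 0.05 and at least a 2-fold difference, that is 1 on the log2 scale. The 4 libraries of clone 3 lay entirely above those of clone 1 in 3737 genes (30.8%) and entirely below in 3740 genes (30.9%), and 928 of the genes called higher and 588 of those called lower were among them. The median log2 fold change over all tested genes was 0.005. Among genes with at least 10 counts in every library, which leaves out genes absent from 1 clone, 520 were called higher and 480 lower. Among all called genes, 328 had a fitted log2 fold change above 3 and 46 had one below -3. In 468 of the genes called higher the mean of clone 1 was under 1 CPM, and 66 of these had 0 counts in its 4 libraries. The corresponding numbers for genes called lower were 132 genes with a clone 3 mean under 1 CPM and 1 gene with 0 counts.

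**Figure D1:**
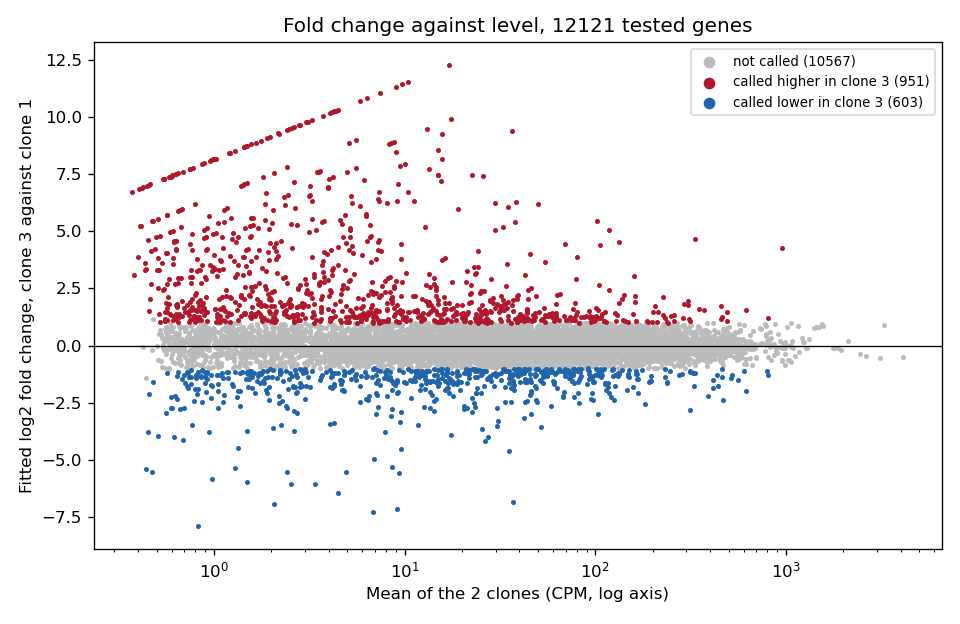
Fitted log2 fold change of clone 3 against clone 1 (vertical axis) against the mean of the 2 clones in CPM (log axis) for 12121 tested genes. Red points are the 951 genes called higher in clone 3 and blue points the 603 called lower, and the red points reach farther from 0 than the blue ones.

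The targeted gene itself differed between the clones. Wdr34 was at 24.6, 19.9, 21.0 and 22.9 CPM in the 4 libraries of clone 3 and at 40.5, 51.3, 49.6 and 47.2 CPM in those of clone 1. Every clone 3 library lay below every clone 1 library. The mean fell from 47.2 ± 4.72 CPM in clone 1 to 22.1 ± 2.05 CPM in clone 3, a log2 fold change of -1.09 with a standard error of 0.09 (edgeR adjusted p = 7.48e-09). The 4 control clones had means of 32.2 to 44.9 CPM and the Wdr60 clone 50.7 CPM, so clone 3 was below and clone 1 above all of the controls. The difference was close to the fold limit. A test against that limit itself (glmTreat) gave an adjusted p of 0.496, and after subtraction of the chromosome 2 median described below the log2 fold change was -0.75.

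Wdr34 was 1 of 12 tested dynein-2 genes and the only one called, a share of 8.33% against 12.8% of all tested genes called in either direction. Wdr60, the partner intermediate chain, had 20.8 ± 0.42 CPM in clone 3 and 22.4 ± 1.73 CPM in clone 1, and the edgeR adjusted p was 0.199. Dync2h1, the motor heavy chain, was at 25.8 ± 0.83 and 20.1 ± 2.15 CPM, a log2 difference of 0.36. Dync2li1, the light intermediate chain, was at 34.2 ± 1.17 and 34.8 ± 2.20 CPM, and its libraries overlapped. Among the light chains, Dynlt1f showed a log2 difference of 0.56, Dynll1 of -0.48, Tctex1d2 of 0.44 and Dynlt3 of 0.37, all short of the limit on fold change. None of 6 tested IFT-A genes was called by edgeR, DESeq2 or limma. An unadjusted p under 0.05 in edgeR was reached by 5 of them and by 8559 of all 12121 genes tested, with IFT-A log2 differences from -0.49 to 0.27. Of 17 tested IFT-B genes, 1 (5.88%) was called, Ttc30b, which was at 11.9 ± 1.44 CPM in clone 3 and 25.7 ± 1.31 CPM in clone 1. Ttc30b lies on chromosome 2 like Wdr34, and its log2 fold change of -1.11 was -0.76 after the same subtraction.

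Of 10 tested hedgehog genes, 2 were called higher and 0 lower, against 7.85% and 4.97% of all tested genes. Gli2, a transcription factor at the end of the pathway, was at 13, 12.5, 12.5 and 13.6 CPM in clone 3 and 4.63, 4.56, 5.86 and 4.72 CPM in clone 1. Gas1, a co-receptor of hedgehog ligands, rose from 63.0 ± 2.67 to 146 ± 10.2 CPM. Ptch1, the receptor and a target of the pathway, stood at 26.2 CPM in clone 3 and 25.7 CPM in clone 1, and Gli1, the other usual readout, was under 1 CPM in both.

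The epithelial genes were lower in clone 3. Of 31 genes in this list, all tested, 24 (77.4%) were called lower and 0 higher, where 4.97% of all tested genes were called lower, and the median log2 fold change was -1.49. The 4 libraries of clone 3 lay wholly below those of clone 1 in 28 of the 31 genes and wholly above in 1, against 30.9% and 30.8% of all tested genes, and the summed level of the list was 3680 to 3710 CPM in clone 3 against 8310 to 8440 CPM in clone 1. In bulk RNA a smaller number of epithelial cells and less RNA of these genes in each cell cannot be told apart. Krt8, a keratin of simple epithelia, was at 75.9, 77.0, 84.4 and 75.1 CPM in clone 3 and at 556, 536, 548 and 554 CPM in clone 1. Its partner Krt18 fell from 780 ± 75.5 to 151 ± 6.45 CPM and the related Krt7 from 270 ± 8.17 to 63.6 ± 4.73 CPM. Epcam, an adhesion molecule of epithelial cells, fell from 829 ± 14.7 to 292 ± 6.90 CPM, and Dsp, the desmosomal plaque protein desmoplakin, from 979 ± 30.6 to 248 ± 10.3 CPM. The small GTPase gene Rab25 was at 3.62, 2.84, 3.20 and 3.93 CPM in clone 3 and at 17.7, 21.7, 24.0 and 24.0 CPM in clone 1. All of these groups of libraries were separate.

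Junction proteins, a membrane protease and regulators followed the keratins. The claudins Cldn8 and Cldn4 fell from 72.3 ± 4.44 to 13 ± 1.17 CPM and from 685 ± 31.1 to 200 ± 11.1 CPM, and the membrane protease gene Prss8 from 81.6 ± 4.96 to 15.7 ± 0.62 CPM. Grhl2, a transcription factor that maintains epithelial genes, was at 38.9, 37.2, 32.5 and 36.4 CPM in clone 3 and at 155, 160, 153 and 152 CPM in clone 1. Ehf, an Ets factor of epithelia, was among the genes with the lowest fold changes and fell from 68.1 ± 11.7 to 2.81 ± 0.84 CPM. The splicing regulators Esrp2 and Esrp1 fell by 2.08 and 1.08 on the log2 scale. Cdh1, which encodes E-cadherin, had 306 ± 4.76 CPM in clone 3 and 617 ± 10.8 CPM in clone 1, a log2 fold change of -1.01 that lies at the limit, and its call was lost in 6 of 19 alternative analyses. The 7 genes of the list without a call included Tjp1, which encodes the tight junction protein ZO-1 (235 and 241 CPM), Cldn3 (52.3 and 60.6 CPM) and the kidney cadherin Cdh16, which was at 599 ± 13.3 CPM in clone 3 and 442 ± 7.08 CPM in clone 1.

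**Figure D2:**
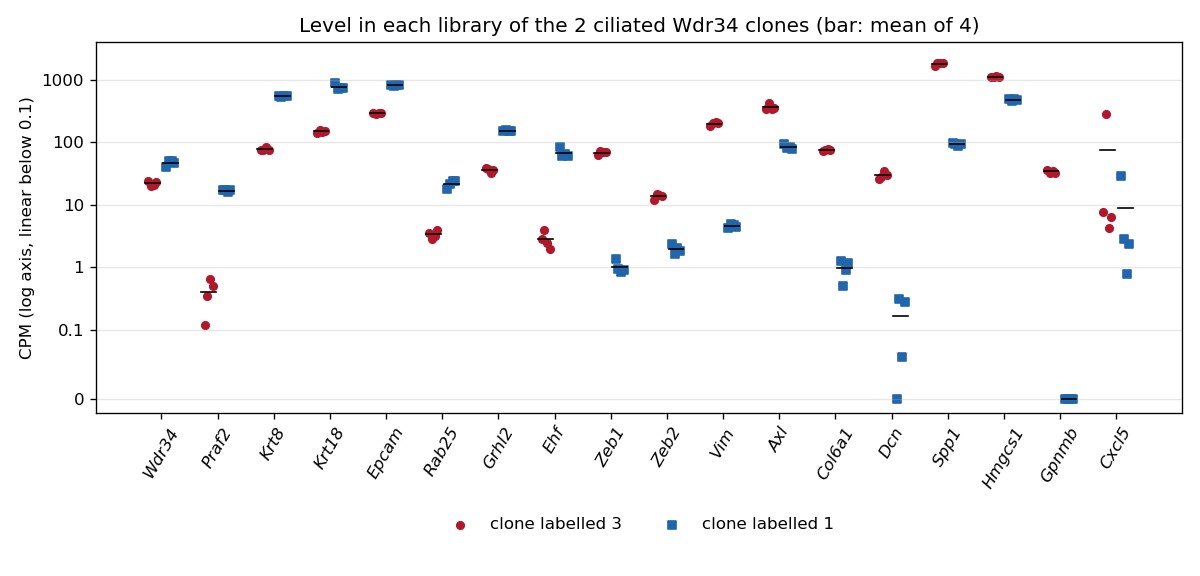
Level of 18 genes in each library, in CPM on a log axis that is linear below 0.1. Circles are the 4 libraries of clone 3, squares the 4 libraries of clone 1, and bars their means; the groups are separate for every gene except Cxcl5, where replicate 2 of clone 3 is at 287 CPM.

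Since these genes moved together, the promoter windows of the list were searched for the E-box CACCTG, the sequence that Zeb proteins are known to bind. A window holds 250 bases before and 50 bases after a gene start, and the RefSeq sequences (GRCm38.p6) covered 9229 of the 12121 tested genes and 18 of the 31 epithelial genes. Both strands were read. At least 1 CACCTG stood in a window of 15 of the 18 epithelial genes (83.3%), of 1914 of all 9229 genes (20.7%), of 167 of 412 genes called lower (40.5%) and of 143 of 673 genes called higher (21.2%). A different E-box, CAGCTG, which does not overlap it, stood in 3 of the 18 epithelial genes (16.7%), in 17.2% of all genes, in 23.8% of those called lower and in 21.4% of those called higher. Cldn3, Pard6b and Prom1, which were not called, were among the 15, and Ovol2, which was called lower, had no CACCTG. The motif was therefore not confined to the epithelial genes that were called. Genes without a window in the table were not searched. A match of letters is not evidence of binding. Windows of 4 called genes are printed 5′ to 3′ along the gene's own strand, with CACCTG or its reverse complement in capitals, because they show how the copies lie around the start.
Epcam, chr17:87635729-87636028, plus strand: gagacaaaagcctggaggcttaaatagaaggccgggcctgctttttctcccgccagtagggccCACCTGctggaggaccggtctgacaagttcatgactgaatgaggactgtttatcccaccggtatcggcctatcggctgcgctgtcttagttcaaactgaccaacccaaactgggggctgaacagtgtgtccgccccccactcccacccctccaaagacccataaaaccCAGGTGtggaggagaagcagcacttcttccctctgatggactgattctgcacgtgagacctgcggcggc
Krt8, chr15:102004293-102004592, minus strand: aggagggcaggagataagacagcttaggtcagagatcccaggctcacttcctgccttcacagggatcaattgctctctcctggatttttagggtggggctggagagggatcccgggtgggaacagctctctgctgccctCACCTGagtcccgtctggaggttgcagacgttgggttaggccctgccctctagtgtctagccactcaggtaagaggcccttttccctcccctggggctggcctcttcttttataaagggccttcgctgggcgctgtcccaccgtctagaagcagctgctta
Crb3, chr17:57061951-57062250, plus strand: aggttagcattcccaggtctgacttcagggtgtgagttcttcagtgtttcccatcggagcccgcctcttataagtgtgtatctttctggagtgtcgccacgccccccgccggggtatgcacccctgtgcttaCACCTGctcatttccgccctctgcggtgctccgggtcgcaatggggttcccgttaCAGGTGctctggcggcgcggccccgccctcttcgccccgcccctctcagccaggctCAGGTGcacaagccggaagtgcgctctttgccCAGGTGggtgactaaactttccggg
Rab25, chr3:88548230-88548529, minus strand: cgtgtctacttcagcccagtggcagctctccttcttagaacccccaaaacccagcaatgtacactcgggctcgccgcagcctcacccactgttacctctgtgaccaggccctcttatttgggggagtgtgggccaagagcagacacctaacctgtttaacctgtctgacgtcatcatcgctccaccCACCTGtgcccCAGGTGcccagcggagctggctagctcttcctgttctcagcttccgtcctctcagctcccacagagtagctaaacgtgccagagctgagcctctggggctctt
Counted from the gene start at the 251st base of the window, the copies begin at -187 and -19 in Epcam, at -111 in Krt8, at -118, -63, -7 and 25 in Crb3 and at -64 and -53 in Rab25. Crb3, which encodes a protein of the apical polarity complex, fell from 75.4 ± 4.31 CPM in clone 1 to 33.6 ± 2.26 CPM in clone 3.

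Some mesenchymal genes were higher in clone 3. Of 22 genes of the list 14 were tested, and 7 of these were called higher and 1 lower, against 7.85% and 4.97% of all tested genes, and the median log2 fold change was 0.95. The test against the fold limit (glmTreat) called 5 of the list higher. Nt5e, among the 7, was at 0.754 CPM in clone 3 and 0.0457 CPM in clone 1 and passed the filter on low counts only through clone 3. Zeb1, a repressor of epithelial genes, was at 62.7, 73.0, 69.8 and 69.1 CPM in clone 3 and at 1.35, 0.949, 0.854 and 0.898 CPM in clone 1, a log2 fold change of 6.07 with a standard error of 0.11 (edgeR adjusted p = 1.43e-16). Its relative Zeb2 rose from 1.97 ± 0.32 to 13.8 ± 1.36 CPM. Vim, which encodes the intermediate filament vimentin, was at 184, 207, 210 and 202 CPM in clone 3 and at 4.24, 5, 4.7 and 4.38 CPM in clone 1. The receptor tyrosine kinase gene Axl rose from 84.7 ± 6.76 to 366 ± 38.0 CPM. Each of these 4 genes had separate libraries. Cdh2, which encodes N-cadherin, did not reach the limit on fold change (293 ± 8.53 and 160 ± 5.28 CPM), nor did Fn1, the fibronectin gene (757 ± 78.7 and 546 ± 23.9 CPM). Snai1 was under 1 CPM in both clones, Snai2 had a mean of 0.23 CPM in clone 3 and 0 in clone 1, and Twist1 had 0 counts in all 8 libraries. Mmp2 was the gene called lower (1.997 ± 0.30 and 3.98 ± 0.44 CPM), with a log2 fold change of -1.002, and its call was lost in 11 of 19 alternative analyses.

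Many genes of the extracellular matrix were higher in clone 3. Of 35 tested matrix glycoprotein and proteoglycan genes, 18 (51.4%) were called higher and 3 lower, against 7.85% and 4.97% of all tested genes, with a median log2 fold change of 1.05. Of 15 tested collagen genes, 6 were called higher and 2 lower, and of 34 tested matrix proteases and inhibitors 14 and 4. Among genes with at least 10 counts in every library, the numbers called higher were 12 glycoprotein genes, 2 collagen genes and 6 proteases and inhibitors. Col6a1, a chain of the microfibrillar collagen VI, was at 71.9, 75.5, 78.9 and 76.8 CPM in clone 3 and at 1.24, 0.506, 0.915 and 1.18 CPM in clone 1. Its partner chain Col6a2 rose from 0.282 ± 0.128 to 10.1 ± 0.33 CPM, and Col5a1, of a fibril-forming collagen, from 0.602 ± 0.281 to 37.7 ± 1.87 CPM. Col11a1, a cartilage collagen, had 198 counts over the clone 3 libraries and 1 over those of clone 1, a ratio of 182 with a 95% counting interval from 32.3 to 7233. The basement membrane chain Col4a3 went the other way and fell from 200 ± 7.34 to 42.4 ± 1.05 CPM.

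Spp1, which encodes the secreted phosphoprotein osteopontin, was the most abundant gene called higher, at 1695, 1885, 1862 and 1854 CPM in clone 3 and 98.1, 94.8, 88.7 and 94.3 CPM in clone 1. The small proteoglycan gene Dcn (decorin) rose from 0.165 ± 0.157 to 29.7 ± 3.67 CPM. Lox, which encodes the enzyme that cross-links collagen, had 621 counts in clone 3 and 0 in clone 1, which makes it at least 190-fold higher against a floor of 3 counts over the 4 libraries. Postn, the matrix protein periostin, had 389 counts against 0 and was at least 119-fold higher. Serpinh1, the collagen chaperone, rose from 1.79 ± 0.73 to 64.2 ± 1.39 CPM. It was at 0.251 to 86.0 CPM in the control clones and 131 CPM in the Wdr60 clone, and Postn was at 0 to 30.6 CPM in the controls. Clone 3 thus lay within the control range for Serpinh1 and Postn, and above it for Spp1, Dcn and Lox. Adamts4, an enzyme that cleaves aggrecan, was at 35.3, 70.9, 37.6 and 36.2 CPM in clone 3 and under 1 CPM in every clone 1 library, with replicate 2 of clone 3 the highest, and without that library its log2 fold change was 7.14. Of 21 tested integrin and laminin genes, 3 (14.3%) were called higher and 4 (19%) lower, against 7.85% and 4.97% of all tested genes. With at least 10 counts in every library the numbers were 2 and 3. Itga7, a laminin receptor of muscle, rose from 4.81 ± 0.89 to 41.9 ± 0.54 CPM, whereas Itgb4 and Lama3, the integrin and laminin chains of hemidesmosomes, fell from 173 ± 6.52 to 53.3 ± 4.86 CPM and from 43.5 ± 3.24 to 17.1 ± 0.78 CPM.

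The study's own cartilage list had 8 genes called higher and 3 lower of 13 tested, and its angiogenesis list 14 and 4 of 24, against 7.85% and 4.97% of all tested genes. Among genes with at least 10 counts in every library, 2 cartilage and 5 angiogenesis genes were called higher. Both lists were chosen by the study on these samples, so their counts are not independent evidence of a direction. The summed level of the angiogenesis list went the other way, 457 to 510 CPM in clone 3 and 643 to 730 CPM in clone 1. The fibroblast markers share Postn and Dcn with the matrix glycoprotein list. Their summed level was 34.1 to 41.3 CPM in clone 3 and 1.69 to 3.29 CPM in clone 1, with these 2 called higher of the 3 tested among 10 markers and 0 called higher with at least 10 counts in every library. Thy1 had 0 counts in all 8 libraries, and Col1a2, Col3a1, Lum, Pdgfra, Pdgfrb and Fap were under 1 CPM in both clones. Col1a1 was at 1.19 CPM in clone 3 and 2.29 CPM in clone 1. Of 10 endothelial markers only Egfl7 passed the filter (8.94 and 11.2 CPM), and Cdh5 and Tie1 had 0 counts throughout. Among leukocyte markers, Adgre1, Lyz2 and Tyrobp had 0 counts, Ptprc was under 1 CPM, and Csf1r was at 216 CPM in clone 3 and 248 CPM in clone 1. Of the 2 tested neuronal markers both were called higher, Map2 from 0.0716 ± 0.0536 to 30.0 ± 1.65 CPM and Tubb3 from 6.75 ± 1.02 to 21.3 ± 1.5 CPM, while Snap25, Stmn2, Nefl and Nefm had 0 counts. Map2 passed the filter on low counts only through clone 3, and with at least 10 counts in every library 1 neuronal marker was called. What part these markers have in the differences was not tested.

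Genes of cholesterol synthesis and uptake were higher in clone 3. Of 23 tested genes, 14 (60.9%) were called higher and 0 lower, against 7.85% and 4.97% of all tested genes. The libraries of clone 3 lay wholly above those of clone 1 in 21 of the 23, against 30.8% of all tested genes, and the median log2 fold change was 1.16. The summed level of the list was 7540 to 7680 CPM in clone 3 and 3340 to 3540 CPM in clone 1. Hmgcs1, the synthase at the head of the pathway, was at 1105, 1115, 1166 and 1129 CPM in clone 3 and at 488, 469, 495 and 482 CPM in clone 1. Cyp51 and Msmo1, which remove methyl groups from sterol intermediates, rose from 258 ± 16.3 to 718 ± 29.4 CPM and from 190 ± 5.37 to 552 ± 31.3 CPM. Idi1, an isomerase of the isoprenoid steps, rose from 59.1 ± 4.30 to 165 ± 3.39 CPM. Insig1, which retains the regulator of these genes in the endoplasmic reticulum, rose from 212 ± 9.73 to 704 ± 23 CPM. Among the control clones Hmgcs1 was at 492 to 1442 CPM, Cyp51 at 375 to 1420, Msmo1 at 266.5 to 582 and Idi1 at 72.6 to 168. In each of these genes clone 3 lay within that range and clone 1 below it. Insig1 was at 317 to 651 CPM in the controls, with clone 3 above and clone 1 below. Srebf2, the transcription factor of the pathway, was at 747 ± 30.9 CPM in clone 3 and 709 ± 35.4 CPM in clone 1 with an edgeR adjusted p of 0.106. The sterol element TCACNCCAC, read on both strands, stood in the promoter window of 1 of 16 covered genes of this list (Hmgcs1) and in 1.34% of all covered genes.

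**Figure D3:**
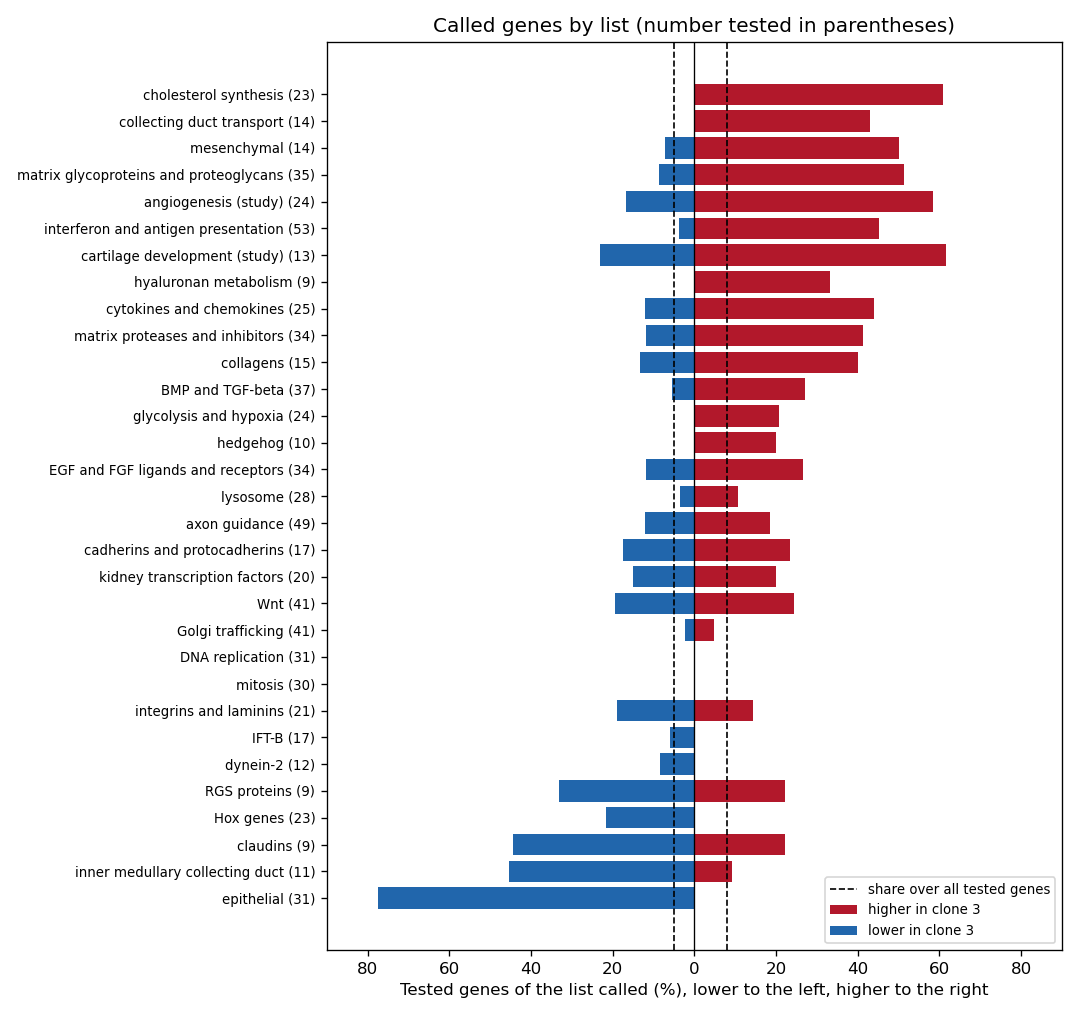
Share of the tested genes of each list called higher in clone 3 (red, to the right) and lower (blue, to the left), in percent, for lists with at least 9 tested genes. Dashed lines mark the shares over all tested genes, 7.85% and 4.97%. The epithelial list reaches 77.4% to the left and the cholesterol list 60.9% to the right, while the mitosis and DNA replication lists have no called gene.

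Many interferon-stimulated and antigen presentation genes were higher in clone 3. Of 53 tested genes, 24 (45.3%) were called higher and 2 lower, against 7.85% and 4.97% of all tested genes, and 9 were called higher among genes that had at least 10 counts in every library. Ifi203 and Mndal, members of a family of sensors of DNA, had 216 and 214 counts in clone 3 and 0 in clone 1, at least 66.3-fold and 65.6-fold higher. These genes are close relatives that lie side by side, and how reads shared among them were counted is not given in the sources used here. The guanylate-binding protein gene Gbp7 was at 11.6, 15.7, 10.6 and 11.6 CPM in clone 3 and at 0.508, 0.19, 0.244 and 0 CPM in clone 1. Psmb8, a subunit of the immunoproteasome, rose from 0.220 ± 0.0947 to 4.02 ± 0.65 CPM. The abundant Ifit3 did not reach the fold limit, at 748 ± 81.6 and 389 ± 11.7 CPM.

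The chemokine calls rested in part on 1 library. Of 25 tested cytokine and chemokine genes, 11 were called higher and 3 lower, and without replicate 2 of clone 3 the numbers were 8 and 3. Of all tested genes 7.85% were called higher and 4.97% lower. With at least 10 counts in every library 6 were called higher. Cxcl5, which attracts neutrophils, was at 7.83, 287, 4.2 and 6.43 CPM in clone 3 and at 29.5, 2.85, 0.793 and 2.36 CPM in clone 1. The groups overlapped, and each had 1 library far above the others. Without replicate 2 of clone 3 the log2 fold change of Cxcl5 went from 3.07 to -0.55, that of Cxcl1 from 2 to -0.32 and that of Ccl20 from 2.70 to -0.04, and the calls of all 3 genes were lost. Ccl2, which attracts monocytes, was at 2.23, 27.2, 1.22 and 1.99 CPM in clone 3 and had 0 counts in clone 1, at least 175-fold higher over the 4 libraries and at least 40.9-fold without replicate 2, where it was still called. Cxcl15 did not depend on it, with 4.94, 6.08, 6.02 and 5.28 CPM in clone 3 against 0 counts in clone 1.

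Signalling molecules changed in both directions. In the Wnt list 10 of 41 tested genes (24.4%) were called higher and 8 (19.5%) lower, against 7.85% and 4.97% of all tested genes. With at least 10 counts in every library the numbers were 6 and 6, and the test against the fold limit called 3 Wnt genes lower. Wnt16, a secreted ligand, was at 261, 239, 263 and 259 CPM in clone 3 and at 10.7, 11.9, 10.7 and 10.8 CPM in clone 1, and the receptor gene Fzd8 rose from 0.945 ± 0.162 to 13.2 ± 0.62 CPM. In the BMP and TGF-beta list 10 of 37 were called higher and 2 lower, or 7 and 1 with at least 10 counts in every library. Tgfb2, a ligand, rose from 0.483 ± 0.196 to 10.1 ± 0.97 CPM, and Id3, an inhibitor of basic helix-loop-helix factors that responds to BMP, from 2.62 ± 0.79 to 46.1 ± 2.70 CPM. Bmp7, a ligand of kidney epithelium, was at 3.19, 3.65, 2.82 and 3.15 CPM in clone 3 and at 50.4, 52.2, 52.9 and 50.7 CPM in clone 1. Inha, the inhibin alpha chain, had 3 counts in clone 3 and 200 in clone 1, a ratio of 72.4 with a 95% counting interval from 24.4 to 354. A growth factor list held EGF, FGF and other ligands and receptors, among them Ptn, Igf1, Igf2 and Vegfc. In this list 9 of 34 were called higher and 4 lower. Among axon guidance genes the numbers were 9 and 6 of 49, and among RGS regulators of G proteins 2 and 3 of 9. With at least 10 counts in every library, 4 genes of the growth factor list, 4 axon guidance genes and 1 RGS gene were called higher, and 1 RGS gene lower. The ephrin receptor gene Epha7 had 2576 counts in clone 3 and 2 in clone 1, a ratio of 1185 with a 95% counting interval from 328 to 9792. Igf2, an insulin-like growth factor, had 18.8 ± 0.82 CPM in clone 3 and 0.0727 ± 0.0564 CPM in clone 1.

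Kidney genes did not move as one group. Of 20 tested kidney transcription factors 4 (20%) were called higher and 3 (15%) lower, against 7.85% and 4.97% of all tested genes. With at least 10 counts in every library 3 of these factors were called higher. Foxd1, a factor of the kidney stroma, rose from 13.9 ± 0.89 to 64.4 ± 2.49 CPM and Eya1, a regulator of the nephric lineage, from 33.5 ± 0.46 to 122 ± 2.76 CPM, while Grhl2 and Ehf were among those that fell. Of 14 tested genes of collecting duct transport, 6 were called higher and 0 lower, against the same shares of all tested genes, and with at least 10 counts in every library 3 were called higher. Atp1b1, the beta subunit of the sodium pump, was at 903, 905, 974 and 911 CPM in clone 3 and at 327, 294, 313 and 315 CPM in clone 1, and the potassium channel gene Kcnj16 rose from 21.9 ± 1.22 to 65.7 ± 1.93 CPM. The list of inner medullary collecting duct markers, which shares Cdh1, Cdh16, Epcam and keratins with the epithelial list, had 1 gene called higher and 5 lower of 11 tested, or 0 and 3 with at least 10 counts in every library. All 3 tested proximal tubule markers were called higher: Aqp1, a water channel that is also 1 of the 6 transport genes called higher, from 0.208 ± 0.117 to 30.8 ± 1.43 CPM, and the endocytic receptor genes Lrp2 and Cubn from 14.1 ± 0.87 to 63.5 ± 8.42 CPM and from 2.16 ± 0.15 to 4.73 ± 0.43 CPM. Aqp1 passed the filter only through clone 3, and with at least 10 counts in every library 2 of these markers were called. The transporters that define that segment, Slc34a1, Slc22a6 and Slc22a8, had 0 counts in all 8 libraries.

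Lists of general cell functions differed in their share of calls. None of 30 tested mitosis genes and none of 31 DNA replication genes was called by edgeR, DESeq2 or limma. An unadjusted p under 0.05 in edgeR was reached by 22 and 21 of them and by 8559 of the 12121 genes tested, with log2 differences from -0.66 to 0.54 and from -0.51 to 0.72 and medians of 0 and 0.06. Of 41 tested genes of Golgi trafficking 2 (4.88%) were called higher and 1 (2.44%) lower, both below the shares of 7.85% and 4.97% over all tested genes. They were Rab6b (2.70 ± 0.15 to 12.4 ± 0.83 CPM) and Copz2 (3.69 ± 0.43 to 13.5 ± 1.04 CPM), called higher, and the myosin gene Myo5b (182 ± 5.21 to 51.6 ± 2.84 CPM), called lower. Rab6b was at 12.1 to 28.5 CPM in the control clones and 1.72 CPM in the Wdr60 clone. For this gene clone 3 lay within the control range and clone 1 below it. For Copz2 and Myo5b both Wdr34 clones lay within the control ranges. Of 28 tested lysosome genes 3 (10.7%) were called higher and 1 (3.57%) lower, near those shares. With at least 10 counts in every library 1 lysosome gene was called higher. The libraries of clone 3 lay wholly above those of clone 1 in 20 of the 28 genes and wholly below in 3. Those shares were 30.8% and 30.9% over all tested genes. The median log2 fold change of the lysosome list was 0.45. Its summed level was 7440 to 7710 CPM in clone 3 and 5490 to 5570 CPM in clone 1. Of 24 genes of glycolysis and the hypoxia response 5 (20.8%) were called higher and 0 lower, or 2 higher among genes with at least 10 counts in every library, and among the 5 was the phosphofructokinase gene Pfkp, which rose from 28.6 ± 0.99 to 180 ± 7.73 CPM.

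The genes with the largest fold changes had few or no counts in one clone. Gpnmb, a glycoprotein of lysosomes and melanosomes, was at 36.3, 33.0, 35.0 and 32.9 CPM in clone 3 and had 0 counts in clone 1, at least 772-fold higher. Abca8b, Fmo2, Gulp1 and Dclk1 had 1528, 1436, 1320 and 1090 counts in clone 3 and 0 in clone 1, at least 469-fold, 440-fold, 405-fold and 334-fold higher. In the other direction, Praf2, which encodes a membrane protein of the secretory pathway, was at 0.121, 0.347, 0.663 and 0.509 CPM in clone 3 and at 17.1, 17.0, 16.3 and 17.0 CPM in clone 1. The homeobox gene Lhx2 had 6 counts in clone 3 and 925 in clone 1, and Obsl1, a cytoskeletal adaptor, fell from 73.7 ± 5.21 to 0.636 ± 0.324 CPM. Itga2, the alpha chain of a collagen receptor, had 7 counts in clone 3 and 602 in clone 1.

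Some called genes were neighbours. With the genes tested taken in chromosome order, 11 runs of at least 4 neighbours were called in the same direction, 10 higher and 1 lower; this count was made after the values were seen. The longest held 9 Pcdhb genes and the next 8 Pcdhg genes, both of the protocadherin cluster on chromosome 18. Pcdhb14 rose from 0.856 ± 0.417 to 4.67 ± 0.31 CPM and Pcdhb22 from 7.22 ± 1.25 to 19.8 ± 1.30 CPM, whereas the Pcdhg genes share their last exons, so their separate counts are uncertain. A run of 7 on chromosome 11 held Abca8b and its relatives Abca9, Abca6 and Abca5 with Map2k6, Kcnj16 and Kcnj2. Runs of 5 held the Ifi204 family on chromosome 1 and Tgtp1, Tgtp2 and Ifi47 on chromosome 11, and runs of 4 held Gbp genes on chromosome 5 and 3 Gbp genes with Ccbl2 on chromosome 3. The run of genes called lower was Hoxd9, Hoxd8, Hoxd3 and Hoxd4 on chromosome 2 (chr2:74697763-74748271), which encode homeobox factors of limb and trunk patterning. Hoxd9 fell from 16.8 ± 1.77 to 2.24 ± 0.20 CPM and Hoxd8 from 32.2 ± 1.21 to 14.7 ± 1.20 CPM. The annotated span of Hoxd3 contains Hoxd4, so their counts are uncertain. Of 23 tested Hox genes, 5 (21.7%) were called lower and 0 higher, against 4.97% and 7.85% of all tested genes. The libraries of clone 3 lay wholly above those of clone 1 in 10 Hox genes and wholly below in 8, against 30.8% and 30.9% of all tested genes, and the median log2 fold change was 0.19. The test against the fold limit called 1 Hox gene lower. After subtraction of the chromosome 2 median the log2 fold changes of Hoxd9, Hoxd8, Hoxd3 and Hoxd4 were -2.55, -0.79, -1.03 and -1.001.

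Whole chromosomes differed between the clones. On chromosome 4 the median log2 fold change over 780 tested genes was 0.48 and 659 of them (84.5%) were higher in clone 3, and on chromosome 18 the median was 0.295 over 335 genes. On chromosome 2 the median was -0.344 over 938 genes, of which 193 (20.6%) were higher in clone 3, on chromosome 15 it was -0.338 over 464 genes and on chromosome 3 it was -0.274 over 604 genes. The medians of the other chromosomes lay between -0.067 and 0.152. The standard deviation of such a median over the clone 3 libraries was 0.0253 at most. Bins of 20 Mb gave a median of -0.444 over 203 genes in the bin that holds Wdr34 (chr2:20000001-40000000). Set against each gene's median over the 7 ciliated clones on log2(CPM + 1), clone 3 was at 0.347 on chromosome 4, 0.202 on chromosome 18, -0.316 on chromosome 2 and -0.296 on chromosome 15, where clone 1 was between -0.06 and 0. On chromosome 3 clone 1 was at 0.192 and clone 3 at 0. Other clones had shifts of the same size on other chromosomes, such as -0.372 for control G7 on chromosome 1 and -0.277 for the Wdr60 clone on chromosome 6.

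**Figure D4:**
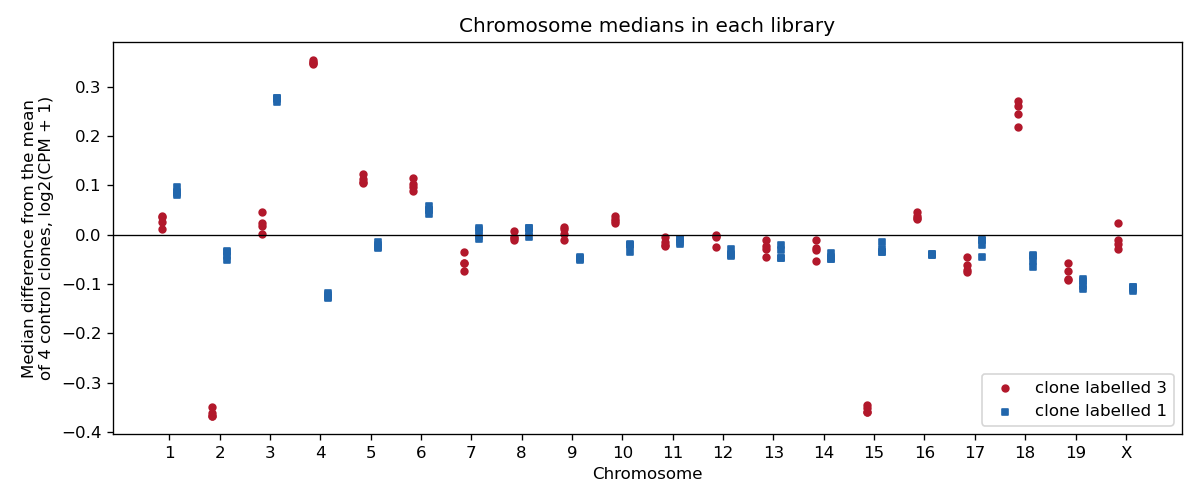
Median difference, over the tested genes of each chromosome, between each of the 8 libraries and the mean of the 4 control clones on the scale log2(CPM + 1). Circles are clone 3 and squares clone 1. The 4 libraries of a clone lie close together, and those of clone 3 stand apart on chromosomes 2, 4, 15 and 18.

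Most calls remained without these shifts. After each gene's chromosome median was subtracted, an analysis added after the medians were seen, 902 genes were called higher and 573 lower, and 1375 of the 1554 calls were kept. In that analysis 23 genes of the epithelial list were called lower and 14 of the cholesterol list higher. Krt8, Krt18 and Grhl2 lie on chromosome 15, and their log2 fold changes of -2.81, -2.37 and -2.09 became -2.47, -2.03 and -1.75. Zeb1 lies on chromosome 18 and went from 6.07 to 5.77.

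With all 4 control clones, the place of both Wdr34 clones among the controls differed by direction. Of the 951 genes called higher, the mean of clone 3 alone lay outside the range of the 4 control clones in 422 (44.4%), that of clone 1 alone in 107 (11.3%), both in 214 (22.5%) and neither in 208 (21.9%). Of the 603 genes called lower, clone 3 alone lay outside in 113 (18.7%), clone 1 alone in 123 (20.4%), both in 76 (12.6%) and neither in 291 (48.3%). For all tested genes these shares were 24.2%, 11.3%, 11.1% and 53.4%. The shares depended on control G7, and without it they were similar in both directions. Without it, clone 3 alone lay outside in 307 of the genes called lower (50.9%) and 476 of those called higher (50.1%), against 32.4% of all tested genes in the same setting. Clone 1 alone then lay outside in 5.8% of the genes called lower and 7.57% of those called higher. Both lay outside in 38.8% and 36.4%, and neither in 4.48% and 5.99%. For all tested genes these last 3 shares were 11.8%, 27.5% and 28.3%. G7 stood at or under 2 times the level of clone 3 in 548 of the 603 genes called lower (90.9%), against 22.7% to 39% for the other 4 clones, and at or above 0.5 times its level in 495 of the 951 genes called higher (52.1%), against 20.1% to 32.2%.

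Named genes show both patterns. Krt8 was at 78.1 CPM in clone 3 and 27.4 CPM in G7, and at 387 to 970 CPM in clone 1, the Wdr60 clone and the other 3 controls. Zeb1 was at 68.6 CPM in clone 3 and 73.7 CPM in G7, and at 0.209 to 8.24 CPM in the same 5 clones. Bmp7, Grhl2, Ehf, Wnt16 and Enpep, which encodes an aminopeptidase of kidney tubules, had the same order, with clone 3 and G7 on one side and the other 5 clones on the other. Clone 3 stood apart from all 6 others in Gpnmb, which was at most 0.104 CPM elsewhere, in Col6a1, which was at most 6.91 CPM elsewhere, in Epha7, which was at most 2.05 CPM elsewhere, and in Praf2, which was at 16.9 to 25.3 CPM elsewhere.

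**Figure D5:**
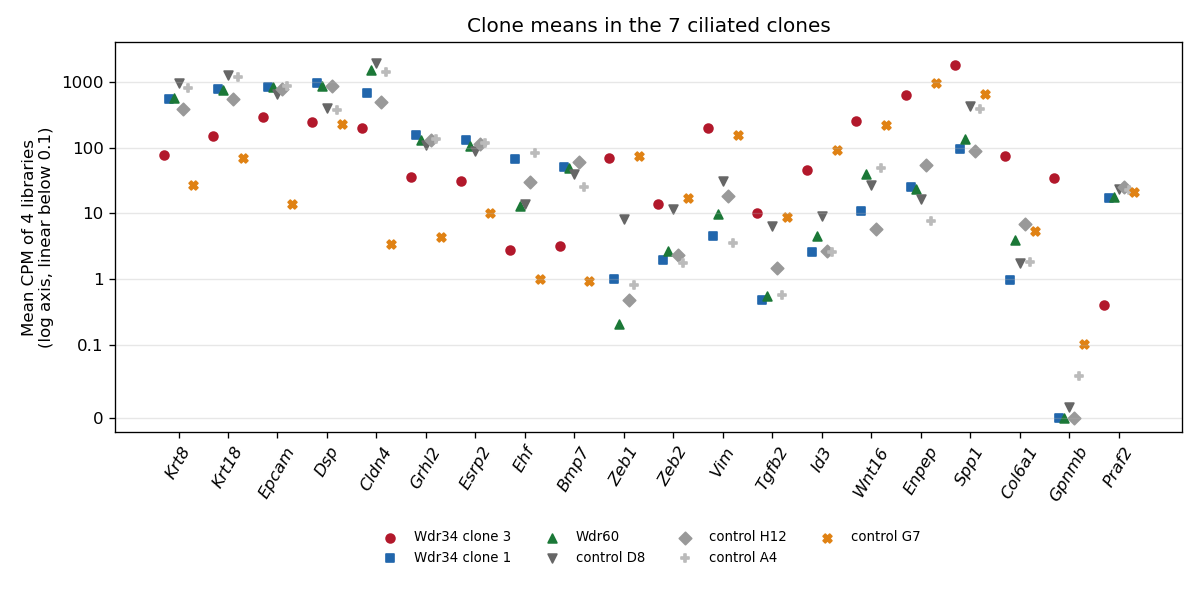
Mean level of 20 genes in each of the 7 ciliated clones, in CPM on a log axis that is linear below 0.1, each point the mean of 4 libraries. Clone 3 (red circles) and control G7 (orange crosses) are the lowest for Krt8, Grhl2, Ehf and Bmp7 and the highest for Zeb1, Wnt16 and Enpep, and clone 3 lies apart from all other clones for Col6a1, Gpnmb and Praf2.

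The number of calls between the Wdr34 clones can be set beside other pairs of ciliated clones fitted in the same way. Clone 3 against clone 1 gave 1554 called genes, the Wdr60 clone against clone 1 gave 632 and the Wdr60 clone against clone 3 gave 1797. The 6 pairs of control clones gave 707 to 2701 called genes, or 5.94% to 22.6% of those tested, and 3 of them, all with G7, gave more than the pair of Wdr34 clones. The 3 control pairs without G7 gave 707, 1135 and 1440. These comparisons share libraries, so their counts are not independent of each other.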

How the data were processed

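RNA of ciliated cells was measured by RNA sequencing. The authors aligned reads to GRCm38 (mm10) and deposited, for each library, raw counts per gene made with featureCounts; the submitters' processing notes also name R 3.4.4 and DESeq2 1.18.1. Strand setting and treatment of reads that map to several genes are not given in the sources used here, so counts of genes that overlap or have a close copy are uncertain. The other ciliated libraries set the CPM scale and the levels of other clones, and non-ciliated libraries were not used here. Groups were taken from the labels, and 0 columns lacked a sample.

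The counts of the 8 libraries were tested with edgeR 4.0.16 (R 4.3.3; filterByExpr, TMM, quasi-likelihood F test, two-sided, Benjamini-Hochberg over all tested genes). The members, gene lists and rule for named genes were chosen with earlier results of these data known. The rule takes dynein-2 genes, the 12 called genes with the largest and smallest fold changes among those of at least 5 CPM in the higher clone, the 8 most abundant called genes in each direction and up to 5 called genes and the defining genes of each list. Other genes were named after their values were seen. For a gene with 0 counts in a clone, the bound uses a floor of 3 counts over its 4 libraries, and intervals are 95% exact ones that cover counting error only. Of 24421 symbols, 24299 (99.5%) matched RefSeq (GRCm38.p6), which gave positions and promoters. Library totals of 15493164 to 21100046 put 1 CPM at 15.8 to 21.6 counts. Replicate libraries differed by more than sampling noise (chi-square per degree of freedom of at least 2.74) and each was kept. Alternatives used DESeq2 1.42.0, limma 3.58.1, other filters, scalings and thresholds, and fits without each library. On data simulated for this comparison (12028 genes, 200 changed), 99 of 100 genes changed 4-fold were called, 94 of 100 changed 2-fold passed the adjusted p, and 0 unchanged genes were called. The simulated spread was that between replicate libraries, so these numbers do not cover differences that arise between single clones.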

Additional observations from a re-analysis of the deposited data

Results flagged for a closer look

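Values of 1 library that lay far from the other 3 of its clone (by Dixon's criterion for a gap in a group of 4) were found in 27 of 254 pairs of a named gene and a clone with a mean of at least 1 CPM. Chance gives about 1 in 20 such pairs, but some genes were named after their values were seen and the values of 1 library are not independent, so no excess is read from this count. Replicate 2 of clone 3 held 11 of the 27 and replicate 1 of clone 1 held 5. No explanation was tested.

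In replicate 2 of clone 3, the chemokine genes stood highest above the others. Cxcl5 was at 286.926 CPM against 4.198 to 7.833 CPM in the other 3 libraries, Cxcl1 at 201.051 against 10.495 to 13.617, Ccl2 at 27.158 against 1.215 to 2.229 and Ccl20 at 18.82 against 0.555 to 0.964. The same library had the highest Adamts4 (70.877 against 35.307 to 37.616 CPM), Gbp2 (23.568 against 10.845 to 11.434 CPM) and Ifi204 (5.212 against 3.701 to 3.794 CPM). Cd44 was at 106.027 CPM there, Il6st at 770.329 CPM and Tubb3 at 23.51 CPM, each above the other 3, while Wnt16 was the lowest at 239.211 CPM. In replicate 1 of clone 1, Cxcl5 was at 29.536 CPM against 0.793 to 2.848 CPM and Cxcl1 at 38.064 against 6.343 to 7.636. Lad1 (853.944 CPM), Srebf2 (761.722 CPM) and Id3 (3.784 CPM) were also highest there.

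Other libraries held the remaining values. In clone 3, Spp1 was lowest in replicate 1 (1694.685 CPM against 1854.103 to 1884.796 CPM), as was Ifi203 (1.627 against 3.148 to 3.416 CPM), and Grn was highest there (697.89 CPM). Atp1b1 was highest in replicate 3 (974.1 CPM), and Cubn and Cdh6 in replicate 4 (5.367 and 145.883 CPM). In clone 1, Cdh16, Fn1 and Wnt16 were highest in replicate 2 (452.325, 581.434 and 11.898 CPM). Gli2 was highest in replicate 3 (5.855 CPM), where Praf2 was lowest (16.284 CPM). In all of these genes but Cxcl5, Cxcl1, Ccl20 and Srebf2 the libraries of the 2 clones did not overlap.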

How the results depend on the processing

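Of the 1554 called genes, fits without 1 library each kept 1504 to 1526, and no alternative called any of them in the opposite direction. The total was 1590 to 1650 in those fits, with 972 to 1026 genes higher and 616 to 650 lower, and the log2 fold change of Wdr34 was -1.159 to -1.043. A filter of at least 10 counts in every library, which leaves out genes absent from one clone, gave 1000 called genes, 520 of them higher. With no fold limit 8252 genes were called, 4137 higher and 4115 lower. The test against the fold limit (glmTreat) called 393 genes lower, and Wdr34, at -1.089, was not called (edgeR adjusted p = 0.496). With chromosome medians subtracted, a choice made after they were seen, Wdr34 was at -0.7453, short of the limit. Without control G7, clone 3 alone lay outside the controls in 50.1% of genes called higher and 50.9% of those called lower, against 32.4% of all tested genes. The total was 2167 without a filter on low counts, 1964 by DESeq2 and 1524 by limma. With the replicate number as a block it was 1558. The numbers do not pair the libraries, since same-numbered libraries correlated in their deviations at -0.237, -0.0518, 0.0502 and -0.0607, and no clone 3 library correlated best with the clone 1 library of its own number.

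Over 19 alternatives, 159 named genes, Wdr34 not among them, had 2873 values on the same side of the threshold and in the same direction. A further 66 values lost the call, 12 gained one and 7 changed sign. The sign changed for Dync2li1 (0.01193) and Dynlrb1 (0.1907) with chromosome medians subtracted. Without 1 library each, Dync2li1 ranged from -0.07025 to 0.0002483, Dynll2 from -0.009137 to 0.05077, Cxcl5 from -0.5479 to 5.24, Cxcl1 from -0.3225 to 3.103 and Ccl20 from -0.03984 to 4.177. For the last 3 the lowest value was that without replicate 2 of clone 3 and the highest that without replicate 1 of clone 1. The cause was not tested. At these depths, a gene with 0 counts in a clone is limited only to the floor of 3 counts over its libraries.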
